A study of Mus musculus with 8 samples.

Results

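The genes described here are those of the proteasome, chosen as the protein-coding genes whose symbol begins with Psma, Psmb, Psmc, Psmd or Psme followed by a digit in the GRCm38 annotation. The rule found 45 genes among the 55487 gene identifiers of the table, of which 43 reached 10 counts in each of the 8 libraries. The muscles came from 8 male C57BL/6J mice, 10 weeks old at assignment, whose hind legs were both held in casts for 8 days. Through that time each mouse received K14Q MOTS-c, a form of the mitochondrially encoded peptide MOTS-c with 1 amino acid replaced, at 15 mg/kg/day in 2 intraperitoneal injections a day. All 8 mice therefore shared strain, sex, immobilization and peptide. Mice given wild-type MOTS-c or sterilized water, and mice without casts, were not analysed here, so no value below is an effect of K14Q MOTS-c or of immobilization. The sample labels name the vastus lateralis, whereas the study's methods and design text name the gastrocnemius; poly-adenylated RNA of a whole muscle was sequenced in either case.

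The proteasome is the large protease that degrades proteins tagged with ubiquitin. Its barrel, the 20S core, is built of outer rings of alpha subunits (Psma), which gate the entrance, and inner rings of beta subunits (Psmb), of which Psmb5, Psmb6 and Psmb7 cut the substrate. The 19S regulatory particle caps the barrel: its ATPases (Psmc) unfold the substrate, and its non-ATPase subunits (Psmd) bind ubiquitin chains, remove them and hold the particle together. Psmb8, Psmb9 and Psmb10 replace Psmb5, Psmb6 and Psmb7 in the immunoproteasome, which is induced by interferon, and the Psme proteins are alternative activators of the barrel. In skeletal muscle this protease breaks down myofibrillar proteins during disuse.

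Sequence before the start site is shown for Psmb5 and Psmb6, cutting subunits that varied with the rest of the complex. It is also shown for Psmb10, an immunoproteasome subunit. The correlation of Psmb10 with the complex was below 0, as for 50.0% of all genes. The sequences are the 250 bases before the RefSeq start on GRCm38.p6, without the 27 (Psmb5) and 52 (Psmb10) bases nearest the start that lie in an exon of the gene in GENCODE M21, and are read 5′ to 3′ on the gene's strand. They cover chr14:54618023-54618245 (Psmb5, minus strand), chr11:70525107-70525356 (Psmb6, plus strand) and chr8:105938445-105938642 (Psmb10, minus strand). They lie upstream of the gene, and that of Psmb10 also lies within the antisense gene Gm16156, outside its exons. Capitals mark TGACNNNGC, the core of the antioxidant response element bound by Nfe2l1 and Nfe2l2, which began 47 bases before the start of Psmb5 and 9 bases before that of Psmb6.
Psmb5: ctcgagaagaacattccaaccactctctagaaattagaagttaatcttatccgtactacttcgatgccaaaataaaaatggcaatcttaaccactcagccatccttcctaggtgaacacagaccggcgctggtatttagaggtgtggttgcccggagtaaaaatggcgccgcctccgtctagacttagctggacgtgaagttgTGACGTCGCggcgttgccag
Psmb6: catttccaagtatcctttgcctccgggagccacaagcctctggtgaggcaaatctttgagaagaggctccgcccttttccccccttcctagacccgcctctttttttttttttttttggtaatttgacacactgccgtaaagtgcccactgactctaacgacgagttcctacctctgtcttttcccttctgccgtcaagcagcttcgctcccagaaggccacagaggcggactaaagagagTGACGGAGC
Psmb10: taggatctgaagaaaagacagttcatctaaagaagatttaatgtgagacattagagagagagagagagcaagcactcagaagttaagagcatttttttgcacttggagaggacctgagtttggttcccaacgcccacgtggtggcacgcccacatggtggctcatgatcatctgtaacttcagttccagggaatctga
A window of 250 bases was found for 38 of the 45 genes, and both strands were searched. TGACNNNGC occurred in 5 of 38 windows (Psmb5, Psmb6, Psmc6, Psmd12 and Psmd9), or 13.2%, beside 14.1% of the 9876 genes that had a window and reached 10 counts in each library. TTCNNNGAA, the core of the interferon-gamma activated site, reads the same on both strands and occurred in 1 of 38 windows, that of Psmb8, which lies in an exon of Psmb8 in GENCODE M21 and is not printed, beside 7.12% of those genes. The core of the interferon-stimulated response element occurred in 3 of 38 windows (Psmb3, Psmd4 and Psmd9), or 7.89%, beside 3.07%, and CCAAT occurred in 15 of 38, or 39.5%, beside 40.5%. The letters were thus about as frequent before these genes as before other expressed genes for TGACNNNGC and CCAAT, and the counts for the other 2 motifs rest on 1 and 3 genes.

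The libraries held 23985356 to 33012497 counts. Values are normalized counts, that is counts divided by the size factor of their library. The muscle fibre markers Acta1, Ckm, Myh4, Myh1, Myh2, Myh7 and Tnnt3 were abundant in every library, with a summed normalized count of 1642930 to 3337840. Mouse 1 held the highest sum, was highest of the 8 mice for Acta1 and for the myosins Myh4, Myh1, Myh2 and Myh7, and had the largest share of counts in its 10 most abundant genes, 26.2% beside 18.8% to 25.3% in the other mice. The 8 macrophage markers summed to 3342 in mouse 1 and 1746 to 4373 in the others, although Cd68 stood at 41.2% of the median of the other mice in mouse 1. Mouse 1 was the next highest after mouse 2 for the summed markers of fibroblasts (15955, beside 9846 to 18365 in the others), endothelium (4354, beside 3112 to 4760) and leukocytes (918, beside 506 to 947). The 5 T and NK cell markers and 4 B cell markers were at or near 0 (summed normalized counts of at most 7.66 and 5.40). No batch is given in the labels. In whole muscle, fewer cells of a type and less RNA per cell cannot be told apart.

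The 31 constitutive subunits with Psm names were 7 alpha, 7 constitutive beta, 6 ATPase and 11 non-ATPase subunits. All 31 had their lowest normalized count in mouse 1. Of the 43 genes that reached 10 counts in each library, 36 were lowest there, beside 13.8% of all 15135 genes that passed that filter. The level of a constitutive subunit in mouse 1 was 53.4% to 81.6% of its median in the other mice, with a median over the 31 genes of 69.6%. The summed normalized count of the 31 genes was 110601 in mouse 1, 145390 in mouse 2, 151991 in mouse 3, 163550 in mouse 4, 179614 in mouse 5, 148259 in mouse 6, 167796 in mouse 7 and 163949 in mouse 8. Mouse 1 was thus lowest and mouse 5 highest; the gap from mouse 1 to the next mouse was 0.504 of the whole range, which does not pass Dixon's 95% limit for 8 mice.

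**Figure D1:**
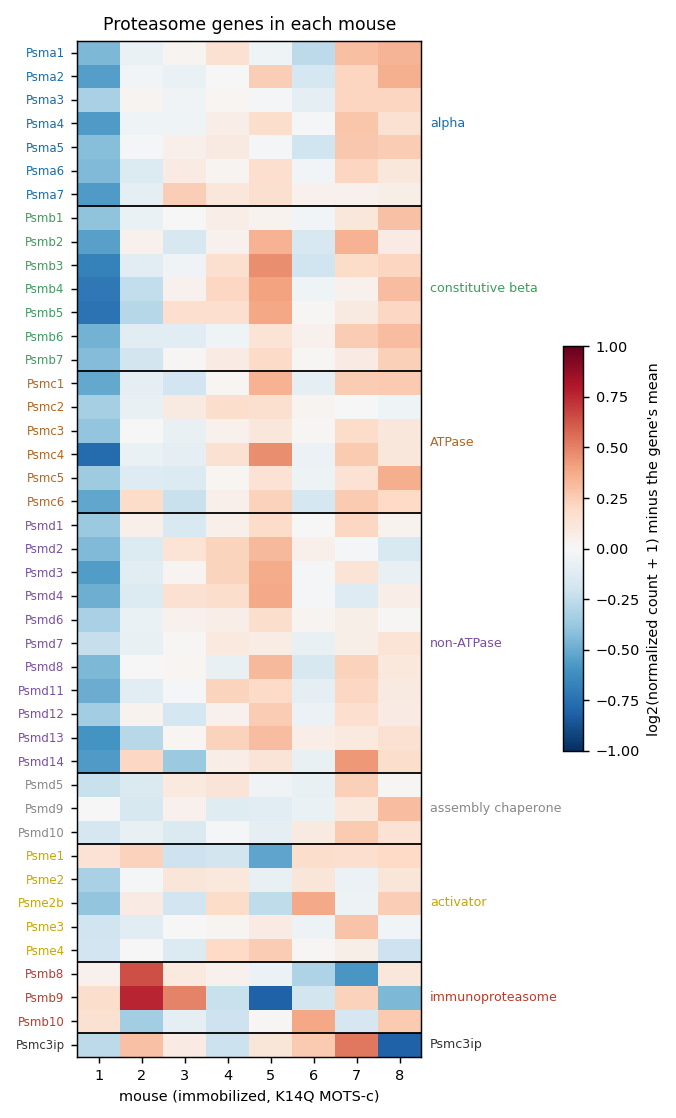
Heat map of the 43 proteasome genes that reached 10 counts in each library (rows, grouped and coloured by role) in the 8 mice (columns). Colour gives log2(normalized count + 1) minus the gene's mean over the mice. The column of mouse 1 is blue for all 31 constitutive subunits. The 3 immunoproteasome rows are not lowest there, beside 13.8% of all genes that are.

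The position of mouse 1 held under the other scalings. With TMM factors in place of the deposited ones, 31 of 31 constitutive subunits were lowest in mouse 1, at a median of 70.1% of the other mice. With library totals alone it was again 31 of 31, at 61.4%, but there the median of all genes in mouse 1 was also lower, at 90.1% of the other mice. Of the 37 nuclear genes of respiratory complex I, another large complex of the muscle, 1 was lowest in mouse 1, and their median level there was 101% of the other mice. The summed muscle fibre markers, with Acta1 and the 4 myosins but not Ckm or Tnnt3, and the share of the most abundant genes were highest in that same library, where fibroblast, endothelium and leukocyte markers were next to highest, and their part in the low proteasome values was not tested.

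Among the alpha subunits, Psma4 stood out for mouse 1: its normalized count was 3510 in mouse 1, with a median of 5293 and a highest value of 6306, and the next lowest mouse was at 5046. Psma4 also followed the other members most closely (r = 0.99, below). Psma6 had the highest level of the alpha subunits per length, 3092 normalized counts per kb of merged exons. Its normalized count ran from 2780 over a median of 3924 to 4378. Psma2 had the lowest level per length, 654 per kb, and the largest coefficient of variation (CV, SD over mean) of the group, 18.8%. Its normalized count ran from 1614 over a median of 2343 to 3029, lowest in mouse 1 and highest in mouse 8. The summed alpha subunits were at 17192 in mouse 1 and 22788 to 27724 in the other mice. The remaining alpha subunits, Psma1, Psma3, Psma5 and Psma7, had mean normalized counts between those of Psma5 (1952 ± 298, SD, n = 8) and Psma7 (4371 ± 670, SD, n = 8).

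Among the constitutive beta subunits, the 3 cutting subunits were all lowest in mouse 1. Psmb5, which holds the chymotrypsin-like activity and whose upstream sequence is shown above, had a normalized count of 1359 in mouse 1, a median of 2480 and a highest value of 2971 (mouse 5). At 53.4% of the median of the other mice, it was the constitutive subunit furthest down in mouse 1. Psmb6, which holds the caspase-like activity, ran from 1952 over a median of 2703 to 3353. Psmb7, which holds the trypsin-like activity, ran from 3752 over a median of 5235 to 5970. These 2 were at 70.2% and 70.0% of the other mice in mouse 1. Psmb3, a structural beta subunit, had the largest CV of the group, 22.2%, with values from 1373 over a median of 2297 to 3028. Psmb1, also structural, had the lowest level per length, 708 normalized counts per kb beside 2589 per kb for Psmb5. Its normalized count ran from 2437 over a median of 3260 to 3955. Psmb2 and Psmb4 had means of 2444 ± 473 and 3939 ± 871 (SD, n = 8).

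The 6 ATPases, which form the ring that unfolds substrates, had mean normalized counts within a range of 2.01-fold. Psmc3 was highest per length, 2834 normalized counts per kb, with values of 5597 (mouse 1), a median of 7491 and a highest value of 8319 (mouse 7). Psmc2 was lowest per length of merged exons, 994 per kb, with values from 3945 over a median of 5017 to 5620. Psmc4 had the largest CV of the ATPases, 22.6%, and ran from 2249 over a median of 3913 to 5274; at 54.3% of the other mice it was, after Psmb5, the next furthest down in mouse 1. Psmc1, Psmc5 and Psmc6 lay at means of 5009 ± 957, 3674 ± 566 and 4780 ± 858 (SD, n = 8). Psmc3ip matches the rule by its symbol, but it is a cofactor of meiotic recombination and no subunit of the proteasome. Its normalized count was 12.0 to 32.0 with a median of 23.6, lowest in mouse 8, and 21.2% of its exon bases overlap Mlx on the other strand.

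Psmd2, the scaffold subunit that docks ubiquitin receptors and Usp14, had the highest level of all members both as a count and per length. Its normalized count was 14115 in mouse 1, with a median of 19450 and a highest value of 23968 (mouse 5), or 4800 per kb on average. The deubiquitinase Psmd14, which removes ubiquitin chains before entry, had the largest CV among the Psmd genes, 21.3%, with values from 1479 over a median of 2348 to 2959. Psmd7, its partner in the lid, had the smallest CV of all members, 8.11%, with a mean of 5176 ± 420 (SD, n = 8), and was still lowest in mouse 1. The ubiquitin receptor Psmd4 had a mean of 8517 ± 1487 and the scaffold Psmd1 of 10253 ± 1259 (SD, n = 8). The other lid and base subunits, Psmd3, Psmd6, Psmd8, Psmd11, Psmd12 and Psmd13, had means from 2474 (Psmd13) to 9106 (Psmd8).

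Psmd5, Psmd9 and Psmd10 are chaperones that help to assemble the base of the regulatory particle and leave before it is complete. Their levels were lower than those of the subunits they assemble, with mean normalized counts of 454 ± 47.7, 376 ± 42.1 and 207 ± 22.3 (SD, n = 8). Psmd5 and Psmd10 were lowest in mouse 1 but close to the other mice there, at 85.3% and 90.3% of their median. Psmd9 had the lowest level per length of the Psmd genes, 51.9 per kb, with values from 335 over a median of 365 to 463. It was lowest in mouse 2 and stood at 105% of the other mice in mouse 1, and 25.5% of its exon bases overlap the gene Gm26745 on the other strand.

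Of the 5 activators, 3 were lowest in mouse 1 (Psme2, Psme2b and Psme3), beside 13.8% of all genes. Psme4 was lowest in mouse 8 and Psme1 in mouse 5. Psme4, the nuclear activator PA200, was the most abundant, with values from 11586 (mouse 8) over a median of 13478 to 15980 (mouse 5). Psme3, the nuclear activator PA28 gamma, ran from 1590 (mouse 1) over a median of 1813 to 2235 (mouse 7). Psme1, the alpha subunit of the interferon-inducible PA28 activator, ran from 245 (mouse 5) over a median of 394 to 414 (mouse 2) and was at 98.6% of the other mice in mouse 1. Psme2, its beta partner, ran from 245 (mouse 1) over a median of 317 to 334 (mouse 8). Mouse 5 was thus lowest for Psme1, where mouse 1 was lowest for Psme2. Psme2b, a copy of Psme2, ran from 42.5 over a median of 56.8 to 73.4, and reads of Psme2 and Psme2b may have been split between them, so both values are uncertain.

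The immunoproteasome subunits were expressed at a small fraction of the subunits they replace. Psmb8, the counterpart of Psmb5, had a normalized count of 35.3 (mouse 7) to 84.3 (mouse 2) with a median of 55.1. Psmb9, the counterpart of Psmb6, ran from 9.17 (mouse 5) over a median of 16.9 to 29.2 (mouse 2). Psmb10, the counterpart of Psmb7, ran from 50.8 (mouse 2) over a median of 62.9 to 85.1 (mouse 6). None of the 3 was lowest in mouse 1, beside 13.8% of all genes, so this count lies near the background. In mouse 1 they stood at 100%, 130% and 119% of the median of the other mice. The CVs of 25.9%, 37.1% and 18.0% lie beside counting errors of 13.6%, 23.8% and 12.4% at these depths. Psmb8 overlaps Gm20496 over 14.7% and Psmb9 overlaps Tap1 over 5.79% of exon bases, both on the other strand. Of their counterparts, Psmb7 overlaps Nek6 over 11.8% on the other strand. Reads there cannot be assigned without a stranded count. Psmb5 overlaps Mir686 over 12.1% of exon bases on the same strand, where a stranded count would not separate the reads.

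**Figure D2:**
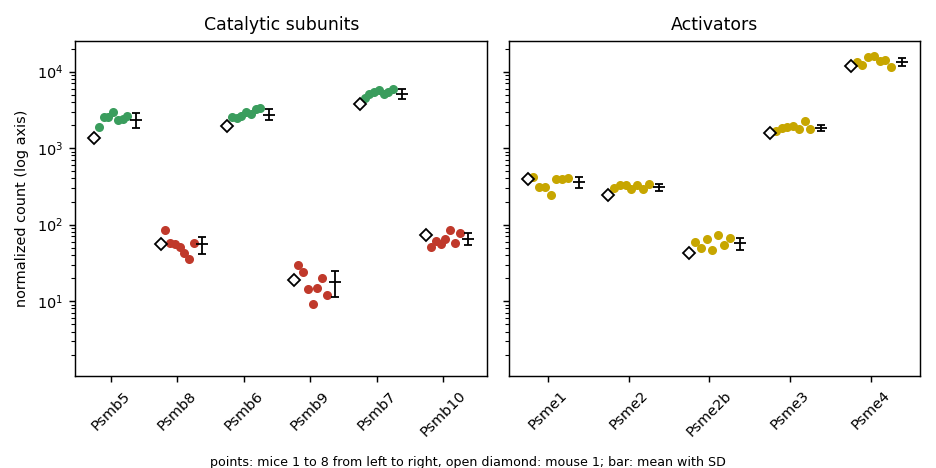
Normalized counts (log axis) of the catalytic subunits with their immunoproteasome counterparts (left) and of the activators (right); each point is a mouse, the open diamond is mouse 1, and the bars give the mean with the SD over 8 mice. Psmb8, Psmb9 and Psmb10 lie below Psmb5, Psmb6 and Psmb7 in each of the 8 mice.

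The normalized count of Psmb8 as a percentage of that of Psmb5 was 1.46% (mouse 7) to 4.52% (mouse 2) with a median of 2.18%. Mouse 1 (4.06%) and mouse 2 were high, and the other mice lay at 2.25% or below. For Psmb9 and Psmb6 the percentage was 0.308% (mouse 5) to 1.16% (mouse 2) with a median of 0.580%. For Psmb10 and Psmb7 it was 1.04% (mouse 4) to 1.92% (mouse 1) with a median of 1.16%, and mouse 6 was next at 1.67%. On the scale of log2 level per kb of merged exons, the difference was -7.29 ± 0.57 for Psmb8 and Psmb5, -8.22 ± 0.66 for Psmb9 and Psmb6 and -5.26 ± 0.32 for Psmb10 and Psmb7 (SD, n = 8). With the transcript annotated as principal in place of merged exons these differences were -6.24, -8.01 and -6.45, so the size and the order of the pairs depend on the length taken, while the direction did not change. Each pair differed in the same direction in 8 of 8 mice, with p = 0.0078 in the two-sided exact sign-flip permutation test, the smallest that 8 mice allow, and the same value after Benjamini-Hochberg adjustment over the 3 pairs.

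No relation between the immunoproteasome subunits was detectable over 8 mice. Pearson's r of log2(normalized count + 1) was 0.36 for Psmb8 and Psmb9 (two-sided exact permutation p = 0.39, adjusted 0.91), -0.36 for Psmb8 and Psmb10 (exact permutation p = 0.40, adjusted 0.91) and -0.52 for Psmb9 and Psmb10 (exact permutation p = 0.19, adjusted 0.91). Spearman's rho was 0.29, -0.21 and -0.50 for these pairs, with permutation p of 0.50, 0.62 and 0.22. Without the 2 mice farthest from the median of the x gene, r was 0.24, -0.54 and -0.47. Between an immunoproteasome subunit and its counterpart, r was -0.28 for Psmb5 and Psmb8, -0.46 for Psmb6 and Psmb9 and 0.08 for Psmb7 and Psmb10, with exact permutation p of 0.45, 0.25 and 0.86. Their rho was -0.10, -0.55 and 0.10 (permutation p of 0.84, 0.17 and 0.84), and r without the 2 farthest mice was 0.50, -0.47 and 0.13. With Ptprc, the pan-leukocyte marker CD45, r was 0.20 for Psmb8, 0.03 for Psmb9 and -0.10 for Psmb10, with exact permutation p of 0.62, 0.95 and 0.81. Their rho was -0.19, -0.12 and 0.05 (permutation p of 0.66, 0.79 and 0.93), and r without the 2 farthest mice was -0.42, 0.10 and 0.30. Psme1 and Psme2, which form 1 activator, had r = -0.06 (exact permutation p = 0.85, adjusted 0.95) and rho = 0.38 (permutation p = 0.36), and r without the 2 farthest mice was -0.20. Of the 10 relations tested, 0 passed adjusted p of 0.05 and 0 had an unadjusted p under 0.05 by Pearson's r or Spearman's rho.

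Psma8, the alpha subunit of the testis proteasome, and Psmb11, the beta subunit of the thymus proteasome, were the members below 10 counts in every library. Psma8 had 0 to 4 counts and Psmb11 0 to 2 counts in a library. Where a library had 0 counts, up to 3 counts are allowed by counting error alone.

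The constitutive subunits varied together from mouse to mouse. Pearson's r of log2(normalized count + 1) with the mean of the other members, over 8 mice, had a median of 0.88 over the 43 genes, and it was at least 0.7 for 32 of 43. The same share was 5.05% of all 15135 genes when each was set against the mean of the members, with a median r of -0.00037 over all genes. The points share library, depth and size factor, so r is a description. By role, r was at least 0.7 for 7 of 7 alpha, 7 of 7 constitutive beta, 6 of 6 ATPase and 10 of 11 non-ATPase subunits, and Psmd2 lay just under that value at 0.696. The closest were Psma4 (0.99), Psmc3 (0.98) and Psmc4 (0.96). Among the chaperones Psmd5 reached 0.70, Psmd10 0.58 and Psmd9 0.16. Among the activators Psme3 reached 0.76, Psme2 0.65, Psme4 0.49, Psme2b 0.41 and Psme1 -0.32. The immunoproteasome subunits lay below 0, at -0.29 for Psmb8, -0.42 for Psmb9 and -0.26 for Psmb10, as did 50.0% of all genes. Psmc3ip was at 0.10.

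Part of this agreement rested on mouse 1. Without that mouse the median r over the 43 genes was 0.67, and 19 of 43 were at 0.7 or more, beside 4.22% of all genes. Among the 31 constitutive subunits it was 18. Psma4 (0.97), Psmc1 (0.94) and Psmc3 (0.91) were highest without mouse 1, while Psmd2 was at 0.10, Psma7 at 0.10, Psmc2 at 0.16 and Psmd4 at 0.20. Psmb8 and Psmb9 were at -0.57 and -0.67 and Psmb10 at -0.084. Among the activators, r without mouse 1 was 0.72 for Psme3, 0.24 for Psme4 and -0.31 for Psme1, and it changed sign for Psme2 (-0.52) and Psme2b (-0.36), as it did for Psmc3ip (-0.32). The chaperones Psmd5, Psmd10 and Psmd9 were at 0.50, 0.48 and 0.39. The 37 complex I genes had a median r of 0.88 with their own other members over 8 mice, so a shared course between mice was also seen in another complex, with a different order of the mice.

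**Figure D3:**
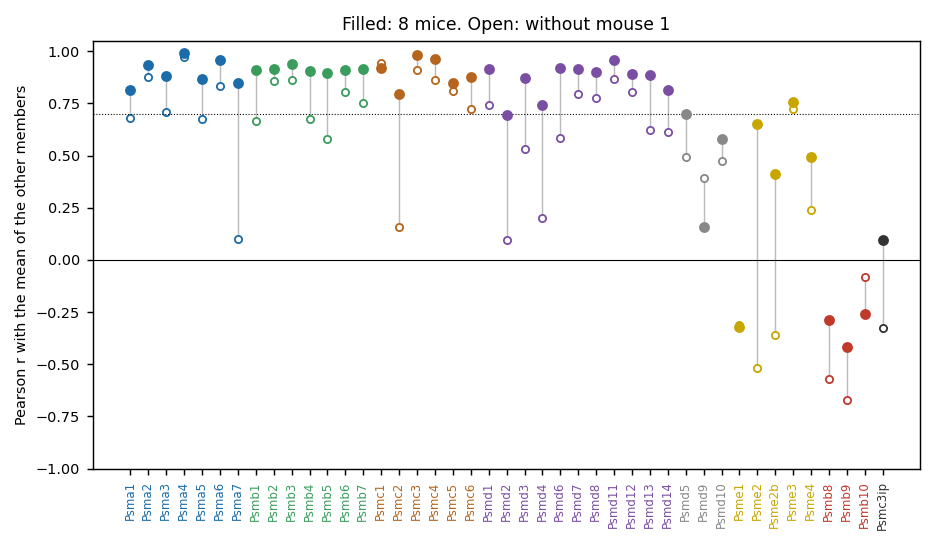
Pearson's r of each gene with the mean of the other proteasome members, over 8 mice (filled) and without mouse 1 (open); the dotted line is r = 0.7 and the colours are the roles. Filled points of 32 of 43 genes and open points of 19 of 43 lie at or above the line. The 3 immunoproteasome genes lie below 0 in both, and over 8 mice so did 50.0% of all genes.

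The spread between mice was close in size to that of other genes. The median CV of the 43 genes was 16.0%, beside 15.6% over all 15135 genes and 13.3% over the 37 complex I genes, and counting error made up 0.719% (Psmd2) to 2.28% (Psma5) for the constitutive subunits. Together the members took up 0.389% of the counts of mouse 1 and 0.517% to 0.693% of those of the other mice. In 2 of 43 members a single mouse stood apart by Dixon's gap over range, Psma4 with mouse 1 low and Psmb8 with mouse 2 high, beside 6.00% of all genes.

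Per length, the subunits of a ring or particle differed in level. Among the alpha subunits the order was Psma6, Psma4, Psma5, Psma7, Psma3, Psma1 and Psma2, and among the constitutive beta subunits Psmb5, Psmb2, Psmb4, Psmb7, Psmb6, Psmb3 and Psmb1. The ATPases followed the order Psmc3, Psmc5, Psmc1, Psmc4, Psmc6 and Psmc2, and the activators Psme4, Psme3, Psme2, Psme1 and Psme2b. The Psmd genes began with Psmd2, Psmd4 and Psmd8 and ended with the 3 chaperones, Psmd10, Psmd5 and Psmd9. Of the 34 pairs of neighbours in these orders, 23 differed at an adjusted p under 0.05 (exact sign-flip permutation test, Benjamini-Hochberg over 34 pairs) and 11 did not. Those that did not were Psma5 and Psma7, Psma1 and Psma2, Psmb2 and Psmb4, Psmb7 and Psmb6, Psmc3 and Psmc5, Psmc5 and Psmc1, Psmd4 and Psmd8, Psmd12 and Psmd6, Psmd11 and Psmd3, Psmd14 and Psmd13, and Psme2 and Psme1. The widest step was from Psmd13 down to the chaperone Psmd10, 2.35 ± 0.27 on the log2 scale (SD, n = 8, exact permutation test, adjusted p = 0.013, in 8 of 8 mice). The order depends on the length taken for a gene: with the transcript annotated as principal, 17 of 34 neighbours did not differ, Psma7 led the alpha and Psmb7 the beta subunits, and Psmc6 in place of Psmc2 and Psmd5 in place of Psmd9 came last, while Psmd2, Psmc3 and Psme4 led their groups under both lengths.

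Of 28 other genes of the ubiquitin and proteasome pathway, 6 had r of at least 0.7 with the mean of the proteasome members and 13 were lowest in mouse 1, beside 5.05% and 13.8% of all genes. The deubiquitinase Usp14, which binds the regulatory particle, was closest at 0.96, with a normalized count of 2046 in mouse 1, a median of 2693 and a highest value of 2998. The segregase Vcp, which extracts ubiquitinated proteins, had r = 0.86 and ran from 13467 over a median of 18022 to 21118, and its cofactor Ufd1 had r = 0.85. The ubiquitin receptor Adrm1, a subunit of the regulatory particle outside the Psm names, had r = 0.85 and ran from 2768 over a median of 3855 to 4540. Nfe2l1, the transcription factor that raises proteasome genes when the protease is short, had r = 0.82, with 19638 in mouse 1, a median of 26204 and a highest value of 31052 (mouse 7). The shuttle protein Ubqln1 had r = 0.74. All 6 were lowest in mouse 1, and without that mouse r was 0.85 for Usp14, 0.79 for Vcp, 0.75 for Ufd1, 0.63 for Ubqln1, 0.53 for Nfe2l1 and 0.49 for Adrm1.

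The other genes of that list had r under 0.7, from 0.68 for the shuttle protein Rad23b down. Sem1, like Adrm1 a subunit of the regulatory particle outside the Psm names, had r = 0.37, and 0.26 without mouse 1. Sem1 was lowest in mouse 4 and stood at 90.4% of the other mice in mouse 1. Without mouse 1, Psmf1 (0.65), Rad23b (0.60) and Uchl5 (0.60) were above Nfe2l1 and Adrm1. Over 8 mice Nfe2l2, the related factor that binds the same response element, had r = -0.06, Ddi2, the protease that activates Nfe2l1, had -0.21, and Ngly1, which removes its sugars, had 0.64. The core chaperones Pomp, Psmg1, Psmg2, Psmg3 and Psmg4 had r of 0.64, -0.20, 0.52, 0.19 and 0.25, and without mouse 1 of 0.28, -0.16, 0.42, 0.40 and -0.41. Ecpas, a proteasome adaptor, had the lowest value at -0.50. The muscle ubiquitin ligases Fbxo32 (atrogin-1) and Trim63 (MuRF1), which mark proteins for degradation in atrophy, had r of -0.01 and 0.47, and of -0.25 and 0.14 without mouse 1. Fbxo32 had a normalized count of 58431 in mouse 1 beside a median of 62175 over all mice, and Trim63 had 32456 in mouse 1, its lowest value, beside a median of 40494 and a highest value of 60044 (mouse 4).

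**Figure D4:**
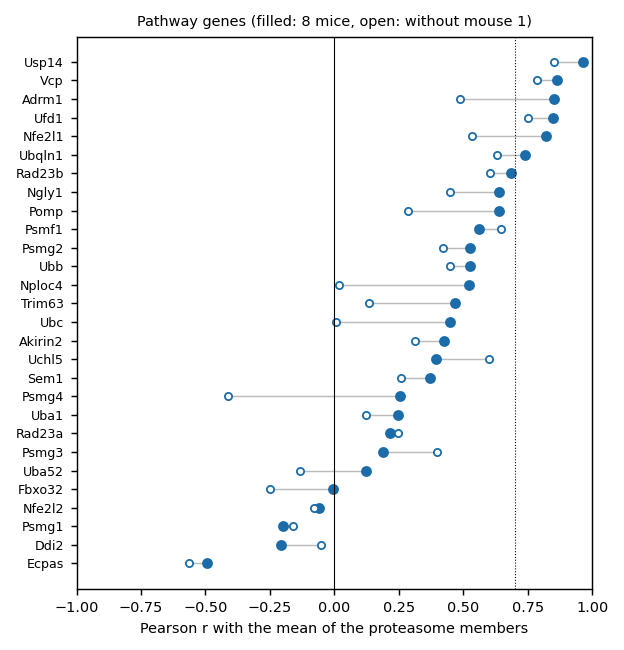
Pearson's r of 28 other genes of the ubiquitin and proteasome pathway with the mean of the proteasome members over 8 mice (filled) and without mouse 1 (open); the dotted line is r = 0.7. Usp14 is highest at 0.96 and Ecpas lowest at -0.50.

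Of 12 interferon and antigen processing genes, 9 had r below 0, beside 50.0% of all genes. None of the 12 had r of at least 0.7 or was lowest in mouse 1, beside 5.05% and 13.8% of all genes, so these counts lie near the background. Among them, the interferon-induced gene Ifit3 had r = -0.60 and the GTPase Gbp2 r = -0.52. Tap1, the peptide transporter next to Psmb9, had r = -0.23. Its normalized count was lowest in mouse 5 (41.3) and highest in mouse 2 (101.6), the same mice as for Psmb9. For Psmb9 the lowest value rests on 10 counts, with mouse 8 close at 12.0. The 2 genes also overlap over 5.79% of the exon bases of Psmb9, so the match of mice is uncertain. Mouse 2 was also highest for Psmb8, Irf1, Nlrc5, B2m, Gbp2, Gbp3 and Ifit3.

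Among all genes that reached 100 counts in each library, those outside the family whose pattern over the 8 mice was most like the mean of the members were Ube4b (r = 0.97), Ubxn4 (0.97), Copz1 (0.96), Usp14 (0.96) and Ankrd1 (0.95). Ube4b is a ubiquitin chain elongation factor and Ubxn4 a Vcp cofactor of the endoplasmic reticulum, Copz1 a coatomer subunit and Ankrd1 a stretch-responsive muscle ankyrin repeat protein. All 5 were lowest in mouse 1. Ankrd1 ranged most, from 733 in mouse 1 over a median of 2367 to 2987 in mouse 7, and Ubxn4 from 4330 over a median of 7400 to 8462. Without mouse 1 the r of the 5 genes was 0.80 (Copz1) to 0.87 (Ube4b). They were chosen for this likeness, and their r is a description over 8 mice.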

How the data were processed

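Poly-adenylated RNA of 8 muscles was sequenced. The authors checked and trimmed reads with FastQC and fastp and aligned them with STAR to GRCm38.p6 (submitters' processing notes), counted reads per gene with summarizeOverlaps and normalized with DESeq2; annotation release and strand setting are not given in the sources used here. The deposited signal is the normalized count, in which each library was divided by its own size factor. In every library 100% of nonzero values were whole multiples of the smallest value (tolerance 0.01), and the recovered reads gave the depths, 23985356 to 33012497, the minimum of 10 counts and the other scalings. The reads carry no molecular identifiers, so counting errors and floors cover counting error only.

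Symbols, positions and exon lengths came from GENCODE release M21 (55227 of 55487 identifiers matched) and upstream windows from RefSeq. Levels per length used merged exons. Tests were exact permutations over mice, and correlations used log2(normalized count + 1). Python 3.11.15, scipy 1.17.1 and edgeR 4.0.16 (TMM factors only) were used, and the functions were tested on simulated data. Alternatives were TMM, library totals, other lengths, pseudocount 5, Spearman's rho, no count minimum, GC and length trends removed, and each mouse left out.

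The members and gene lists were chosen with earlier results of these data known. Values in every mouse's range were given for Psmb5 to Psmb10, Psme1 to Psme4, members under 10 counts or with 1 mouse apart, and, per group, the highest and lowest level per length and the highest CV; Psmd7 and the genes furthest down in mouse 1 were added after their values were seen. The labels number the 8 samples as replicates of 1 group, the design text gives 8 mice, and no pair of libraries agreed within sampling noise. Results for 1 gene are not reported here.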

Additional observations from a re-analysis of the deposited data

Results flagged for a closer look

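Among 101 values tested for 1 mouse apart, 8 had a gap to the next mouse that was, as a share of the whole range, above Dixon's 95% limit for 8 mice; chance alone gives about 1 in 20, and 6.00% of all genes passed the limit. The values are not independent: the alpha sum contains Psma4, and Copz1 and Usp14 were also named for their likeness to the members, so their gaps are descriptions. Mouse 1 was low for Psma4 (0.549), the summed alpha subunits (0.531), Usp14 (0.534) and Copz1 (0.587). The other values were Psmb8, high in mouse 2 (0.537), Uchl5, a deubiquitinase of the regulatory particle, high in mouse 8 (0.608), Ngly1, high in mouse 5 (0.640), and the polyubiquitin gene Ubb, high in mouse 5 (0.643).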

How the results depend on the processing

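No paired analysis was possible because the 8 mice form 1 group. For the main results, 105 alternative values kept their direction, and counts stayed within 1.5 times; the median r was lowest without mouse 1, at 0.67; all 473 alternative mean levels moved by less than 1 SD. The 3 others were the genes at r of 0.7 or more, 19 to 34 with 1 mouse left out (19 without mouse 1), the neighbours not differing in level, 17 with principal transcripts, and the members with 1 mouse apart, 6 with library totals. With the mean or longest transcript length the log2 differences per kb were -6.04 and -6.47 for Psmb8 and Psmb5, -7.75 and -8.83 for Psmb9 and Psmb6 and -4.94 and -5.15 for Psmb10 and Psmb7. The principal transcripts, the members lowest in mouse 1 and the number at r of 0.7 or more were added after the data were seen.

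None of the 10 relations passed an adjusted p of 0.05 in any setting tried, and 23 of their alternative values changed sign while 107 kept it. With 1 mouse left out, r ranged from -0.15 to 0.65 for Psmb8 and Psmb9, -0.75 to 0.091 for Psmb8 and Psmb10, -0.14 to 0.49 for Psmb7 and Psmb10, -0.34 to 0.23 for Psme1 and Psme2, and, with Ptprc, -0.12 to 0.43 for Psmb8, -0.34 to 0.20 for Psmb9 and -0.30 to 0.31 for Psmb10. With library totals r was 0.042 for Psmb5 and Psmb8, 0.18 for Psme1 and Psme2 and 0.033 for Psmb10 and Ptprc. Spearman's rho was 0.38 for Psme1 and Psme2 and, with Ptprc, -0.19 for Psmb8, -0.12 for Psmb9 and 0.048 for Psmb10. With GC and length trends removed r was -0.051 for Psmb7 and Psmb10, -0.076 for Psmb9 and Ptprc and 0.13 for Psmb10 and Ptprc. The cause was not tested.

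Depth limits the low members most: Psma8 and Psmb11 had at most 4 and 2 counts, and Psmb9, which passed the count minimum, had 10 to 29. Only 1 condition was analysed, and strand and transcript use were not known.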
